A study of Hordeum vulgare with 18 samples.

Results

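The sequences named miR165, miR166 or miR5168 were described in small RNA libraries from barley shoots held at high or control temperature. A sequence was a member when at least 1 of the precursor names given to it was MIR165, MIR166 or MIR5168, with or without a locus letter. By that rule 498 of the 7252 distinct sequences listed in the 3 tables were members, with 366 among 4750 in the 1 h table, 355 among 4671 in the 3 h table and 368 among 4603 in the 6 h table. The plants were of the spring barley line Rolap, a single genotype, at 2 weeks of age, and each was either moved to 35.5 °C or kept at 21 °C for 1, 3 or 6 h before the shoots were taken. Each of the 6 groups had 3 libraries, which the labels call biological replicates, and replicates were numbered in accession order only. Shoots were taken whole, so fewer cells with a small RNA and less of it per cell cannot be told apart, and the tables hold no messenger RNA by which the labelled tissue could be checked.

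miR165 and miR166 are plant microRNAs cut from hairpin precursors, mostly as the 3' arm of the duplex. They pair with messenger RNAs of the class III homeodomain leucine zipper (HD-ZIP III) transcription factors, among them PHABULOSA, PHAVOLUTA and REVOLUTA in Arabidopsis, and cause their cleavage. In Arabidopsis this confines HD-ZIP III activity to the upper side of the leaf and to certain vascular cells, and the protein AGO10 holds miR165 and miR166 away from their targets in the meristem. The 5' arm of the duplex is the passenger strand and is usually degraded.

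The 3 families share most of their sequence, and the most abundant form of each, a MIR166m form and the most abundant 5' arm form are shown to place the start and the seed, bases 2 to 8 counted from the 5' end, in capitals. The tables call a sequence Mature when it is the annotated arm and Precursor when it matches the hairpin in another register or length.

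MIR166e/MIR166b, Precursor, 21 nt: tTCGGACCaggcttcattccc
MIR166m, 21 nt: tCGGACCAggcttcattccct
MIR5168, Mature 3', 21 nt: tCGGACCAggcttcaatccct
MIR165a/MIR165b, Mature 3', 21 nt: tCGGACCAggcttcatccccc
MIR166d, Mature 5', 21 nt: gGAATGTTgtctggctcgggg

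Counted from the 5' end of the MIR166m form, the MIR165 form carried T17C and T21C, and the MIR5168 form carried T16A. The MIR166e/MIR166b form began 1 base further upstream, so its bases 2 to 8 were TCGGACC where the other 3' forms had CGGACCA. For the start shared by the MIR166m, MIR165 and MIR5168 forms, the MIR166 forms of 18 to 21 nt whose sequence is the beginning of the listed 22 nt MIR166a form are not analysed here, so miR166 totals cover the listed sequences only. Names came from several plant species, and the 2 MIR165 loci carried names of Arabidopsis species in every case. A locus letter does not name the same locus in each of those species.

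The members held between 31.4% and 44.5% of the counts in a table's library, and library totals over the listed sequences ran from 1449374 to 3214221. miR166 took 79.0% to 83.3% of the member counts, miR5168 16.6% to 20.4% and miR165 0.0911% to 0.622%. The MIR166e/MIR166b and MIR5168 forms shown above held 89.0%, 90.0% and 90.2% of the member counts at 1, 3 and 6 h. Levels are counts per 1000000 (CPM) of a library's table total scaled by the trimmed mean of M-values (TMM), so they are relative to the other listed small RNAs. Fold changes are heat over control, on the log2 scale with their standard error, from edgeR's quasi-likelihood test with Benjamini-Hochberg adjustment over all features tested. "Called" means an adjusted p under 0.05, and after the filter on low counts 101, 97 and 94 members were tested at 1, 3 and 6 h. On the first principal component of all libraries, 28.3% of the variance, control replicate 1 at 3 h and heat replicate 2 at 6 h stood apart at 6.68 and 6.13, against -3.84 to 1.05 for the other 16. At 3 h the heat libraries were on lane 1 and the controls on lane 2, so temperature and lane cannot be told apart there, while at 1 h and at 6 h all 6 libraries shared a lane.

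At 6 h of heat miR165 rose and the listed miR166 fell slightly, and no family total was called at 1 h or 3 h. miR165 stood at 2306, 1069 and 1820 CPM in the heat libraries at 6 h and at 620, 479 and 695 CPM in the controls. Every heat library was above every control, and the lowest of the 3 was replicate 2, which stood apart on the principal component. The rise was 2.90-fold, 1.53 ± 0.32 on the log2 scale, with an adjusted p of 0.0225 in edgeR. Of the 74 families tested at 6 h, 16.2% were called, 9.46% higher and 6.76% lower, and of the 75 tested at 3 h 2.67% were, all lower. The miR165 total at 6 h without heat replicate 2 rose by 1.83 ± 0.28, adjusted p = 0.00461 in edgeR. Leaving out heat replicate 1 gave 1.28, adjusted p = 0.0542, and leaving out control replicate 1, 2 or 3 gave adjusted p = 0.09005, 0.127 or 0.0696 in edgeR.

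The earlier durations gave no such difference for miR165. At 1 h the heat libraries held 509.9, 598 and 364 CPM and the controls 474, 334 and 609 CPM, which overlapped (0.05 ± 0.28, adjusted p = 0.890 in edgeR). At 3 h they held 945, 532 and 449 CPM against 1271, 386 and 545 CPM (-0.19 ± 0.52, adjusted p = 0.848). The highest of the 3 h controls was replicate 1, the library that stood apart, and without it the 3 h value turned to 0.47 ± 0.39, adjusted p = 0.462. The heat effect at 6 h minus that at 1 h was 1.61 ± 0.60 for miR165, adjusted p = 0.201 in a single edgeR fit of the 18 libraries, so the effects at these durations were not shown to differ.

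miR166 at 6 h held 292521, 291302 and 293853 CPM in heat and 339540, 381212 and 347242 CPM in control. Every heat library was below every control, by -0.28 ± 0.06 on the log2 scale, adjusted p = 0.0225 in edgeR. The call rested on the scaling: divided by the whole library total implied by the authors' RPM values, the difference was -0.01, adjusted p = 0.979. On that scale the heat libraries held 21250, 27200 and 16590 reads per 1000000 reads (RPM) and the controls 21520, 22150 and 21670 RPM, which overlapped. DESeq2 gave -0.28, adjusted p = 0.163, and the call was also lost without any 1 of the 6 libraries except heat replicate 3. At 3 h the order was the other way, with 317130, 326143 and 320023 CPM in heat and 316211, 283287 and 288101 CPM in control. That difference, 0.12 ± 0.07, was not called, adjusted p = 0.352, and with library size scaling it turned to -0.10. At 1 h the heat libraries spread from 207642 to 333014 CPM around controls of 239638 to 269300 CPM (0.11 ± 0.20, adjusted p = 0.814 in edgeR).

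miR5168 was not called at any duration. Its heat libraries held 51533, 68782 and 66276 CPM at 1 h, 76519, 72865 and 73119 CPM at 3 h, and 75664, 69490 and 61158 CPM at 6 h. The controls held 54818, 61808 and 59121 CPM, then 68777, 69453 and 69882 CPM, then 79357, 81966 and 73560 CPM. The groups overlapped at 1 h and 6 h, and at 3 h all heat libraries were above the controls. The log2 changes were 0.09 ± 0.18, 0.10 ± 0.09 and -0.19 ± 0.10, with adjusted p = 0.846, 0.543 and 0.366 in edgeR. The sum of the 3 families, of which miR166 is the larger part, changed by 0.11 ± 0.19, 0.11 ± 0.09 and -0.26 ± 0.06. The 6 h value of the sum was called, adjusted p = 0.0346 in edgeR, where 15.3% of families were with the 3 merged, 8.33% higher and 6.94% lower (2.74% at 3 h, all lower), but was 0.02 with implied library totals, adjusted p = 0.974. That call was lost in 10 further alternatives of the 14, which were DESeq2, library size scaling, no filter, the fit of all 18 libraries and leaving out any 1 of the 6 libraries. Averaged over the durations, the sum changed by 0.00 ± 0.08, adjusted p = 0.990.

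**Figure D1:**
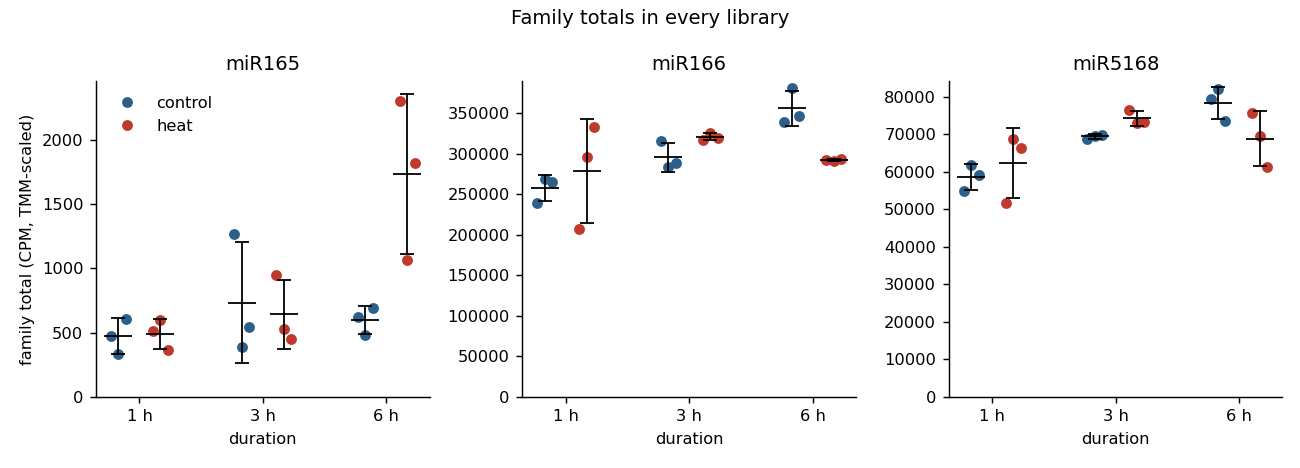
Family totals of miR165, miR166 and miR5168 in CPM (vertical axis, TMM-scaled, from 0) at 1, 3 and 6 h (horizontal axis). Points are libraries, blue for 21 °C and red for 35.5 °C, with the mean and SD of 3 libraries; the red miR165 points at 6 h, 1069 to 2306 CPM, lie above all 3 controls of that duration.

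Single sequences changed in both directions, and the share called among the members was near that among all sequences tested. At 1 h 1 of 101 members was called, lower in heat, 0.99% against 1.76% of the 740 sequences tested (0.541% higher and 1.22% lower). During 3 h of heat 4 of 97 were called, 2 higher and 2 lower, 4.12% against 4.35% of 713 (0.982% higher and 3.37% lower). The 6 h comparison called 14 of 94, 8 higher and 6 lower, 14.9% against 12.1% of 675 (6.07% in each direction). The median log2 change of the tested members was 0.06, 0.20 and -0.13 at 1, 3 and 6 h, and that of all sequences tested was 0.07, -0.08 and 0.00. The ranges of heat and control did not overlap for 17, 22 and 38 tested members, 16.8%, 22.7% and 40.4%, against 16.6%, 25.9% and 33.2% of all sequences tested. Leaving out 1 library gave 1 or 2 calls at 1 h, 0 to 6 at 3 h and 3 to 13 at 6 h. Without the library that stood apart there were 6 calls at 3 h and 13 at 6 h, whereas without heat replicate 1 there were 0 at 3 h and 9 at 6 h. The share called over all sequences in those reduced fits is not given, so these counts show only that the calls rest on single libraries.

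The called members that fell were 3 Mature 5' sequences, the 21 nt MIR166b Precursor sequence and 2 longer MIR5168 forms, and 4 are shown here so that their arms can be compared. Capitals mark bases 2 to 8.

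MIR166b, Precursor, 21 nt: gAATGACGccgggtccgaaag
MIR166c, Mature 5', 21 nt: gGAACGTTggctggctcgagg
MIR166e, Mature 5', 21 nt: gGAATGTTgtctggttggaga
MIR5168, Precursor, 24 nt: aTCTCGGAccaggcttcaatccct

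The 21 nt MIR166b Precursor sequence was the only member called at all 3 durations. It holds neither the stretch shared by the 3' forms nor that shared by the 5' forms, and its reverse complement matched a listed 3' form at 18 of 20 aligned positions. In heat it held 77.2, 35.1 and 41.4 CPM at 1 h, 57.2, 46.9 and 77.8 CPM at 3 h, and 58.3, 90.2 and 48.7 CPM at 6 h. The controls held 201, 185 and 241 CPM, then 122, 238 and 244 CPM, then 286, 287 and 494 CPM. All heat libraries were below all controls of the same duration. The log2 changes were -2.02 ± 0.32, -1.73 ± 0.36 and -2.43 ± 0.31, with adjusted p = 0.00482, 0.0287 and 0.0026 in edgeR. The calls at 1 h and 6 h held under all 14 alternatives tried, and the call at 3 h was lost in 5 of 14, each leaving out a library other than control replicate 1.

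The 21 nt MIR166c Mature 5' sequence, a passenger strand, fell at 3 h and 6 h. It held 30.0, 39.2 and 26.6 CPM in heat and 164, 118 and 89.8 CPM in control at 3 h, a change of -1.95 ± 0.33, adjusted p = 0.0114 in edgeR. At 6 h it held 24.97, 27.9 and 45.6 CPM in heat and 84.6, 83.9 and 114 CPM in control, a change of -1.53 ± 0.29, adjusted p = 0.013. At 1 h the heat libraries were also all below the controls, 63.6 to 70.4 against 105 to 149 CPM, but the change of -0.95 ± 0.25 was not called, adjusted p = 0.108 in edgeR. The 3 h call was lost without heat replicate 1 or 3, adjusted p at most 0.0968, and the 6 h call without control replicate 1.

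The same arm of 2 other loci fell at 6 h. The MIR166d Mature 5' sequence, the most abundant 5' member, held 1404, 1625 and 1328 CPM in heat and 2895, 2894 and 3963 CPM in control. That change was -1.16 ± 0.17, adjusted p = 0.00388 in edgeR, while at 1 h and 3 h it was -0.35 ± 0.24 and -0.14 ± 0.25 with overlapping groups. It was called under 13 of the 14 alternatives at 6 h, and with implied library totals it was -0.87, adjusted p = 0.0975. The MIR166e Mature 5' sequence held 39.9, 44.1 and 34.98 CPM in heat and 82.0, 72.1 and 97.7 CPM in control at 6 h, a change of -1.08 ± 0.23, adjusted p = 0.0167. Its call was lost in 5 of 14 alternatives, among them each of the 3 that left out a control. The longer MIR5168 forms, which start 3 bases upstream, also fell at 6 h. The 24 nt form went from 997 ± 92.4 to 680 ± 75.4 CPM (SD, n = 3 libraries) and the 23 nt form from 95.1 ± 17.1 to 51.4 ± 10.9 CPM. Their changes of -0.55 ± 0.15 and -0.89 ± 0.24 both had adjusted p = 0.0478 in edgeR, and these calls were lost in 11 and 10 of the 14 alternatives.

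The members called higher at any single duration were the miR165 forms and a set of forms of 18 to 20 nt. Those forms are shown with bases 2 to 8 in capitals.

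MIR166a, Precursor, 20 nt: gGAATGTTgtctggttcaag
MIR5168, Precursor, 20 nt: gGGTTGTTgtctggttcaag
MIR166d, Precursor, 20 nt: gGAATGTTgtctggctcggg
MIR166a/MIR166d, Precursor, 20 nt: cTCGGACCaggcttcattcc
MIR166e/MIR166b, Precursor, 19 nt: tTCGGACCaggcttcattc
MIR5168, Precursor, 18 nt: tCGGACCAggcttcaatc
MIR165a/MIR165b, Mature 3', 20 nt: tCGGACCAggcttcatcccc
MIR165a/MIR165b, Precursor, 20 nt: cGGACCAGgcttcatccccc

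The 21 nt MIR165a/MIR165b form held 2155, 984 and 1680 CPM in heat and 580, 448 and 656 CPM in control at 6 h, a change of 1.52 ± 0.28, adjusted p = 0.0121 in edgeR. Its 20 nt Mature 3' form changed by 1.79 ± 0.35, adjusted p = 0.0136, and the 20 nt form that starts 1 base downstream by 1.79 ± 0.39, adjusted p = 0.0189. All 3 were higher in every heat library, and none of these 3 was called at 1 h or 3 h. The 21 nt call was lost without control replicate 1 or 2, adjusted p at most 0.0577. The Mature 3' 20 nt call was lost without control replicate 2 or 3, adjusted p at most 0.0656, and the other 20 nt call without any 1 control or without heat replicate 1, adjusted p at most 0.0869.

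The first 3 of the short forms listed are 5' arms that lack the last base of a listed 21 nt sequence. The 20 nt MIR166a form held 87.2, 86.5 and 36.2 CPM in heat and 27.1, 12.9 and 15.7 CPM in control at 3 h, a rise of 1.92 ± 0.44, adjusted p = 0.0422 in edgeR. At 6 h it held 106, 71.9 and 59.3 CPM against 28.4, 28.6 and 26.2 CPM, a rise of 1.52 ± 0.28, adjusted p = 0.0119. At 1 h the heat libraries were above the controls, 34.0 to 55.8 against 15.8 to 23.5 CPM, without a call (1.01 ± 0.33, adjusted p = 0.240). The 20 nt MIR166d form rose at 3 h, from 94.9 ± 8.06 to 224 ± 39.4 CPM (1.24 ± 0.27, adjusted p = 0.0339), and overlapped at 6 h. The 20 nt MIR5168 form rose at 6 h, from 38.9 ± 4.64 to 77.0 ± 20.3 CPM (0.99 ± 0.26, adjusted p = 0.0459), and its 3 h change of 1.00 ± 0.28 was not called, adjusted p = 0.0994. The 3 h calls of the MIR166a and MIR166d forms were lost in 5 and 6 of 14 alternatives, among them library size scaling, and the 6 h call of the MIR5168 form in 7. The 6 h call of the MIR166a form was lost without control replicate 1 or 2, adjusted p at most 0.0517 in edgeR.

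Another 3 short 3' forms, of MIR5168 and MIR166, rose at 6 h. The 18 nt MIR5168 form, the sixth most abundant member, held 4487, 3347 and 3741 CPM in heat and 2518, 2898 and 2579 CPM in control at 6 h. Its change was 0.53 ± 0.15, adjusted p = 0.0478 in edgeR, and at 1 h and 3 h all heat libraries were above the controls without a call. The 19 nt MIR166e/MIR166b form changed by 0.76 ± 0.21, adjusted p = 0.0478, and the 20 nt MIR166a/MIR166d form by 1.05 ± 0.28, adjusted p = 0.0459. Calls of these 3 were lost in 9, 8 and 7 of the 14 alternatives. The most abundant member, the 21 nt MIR166e/MIR166b form, was not called at 6 h, with 278498, 277820 and 280957 CPM in heat and 323862, 364550 and 328557 CPM in control (-0.28 ± 0.10, adjusted p = 0.105 in edgeR). The most abundant MIR5168 form was not called either (-0.26 ± 0.12, adjusted p = 0.211).

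**Figure D2:**
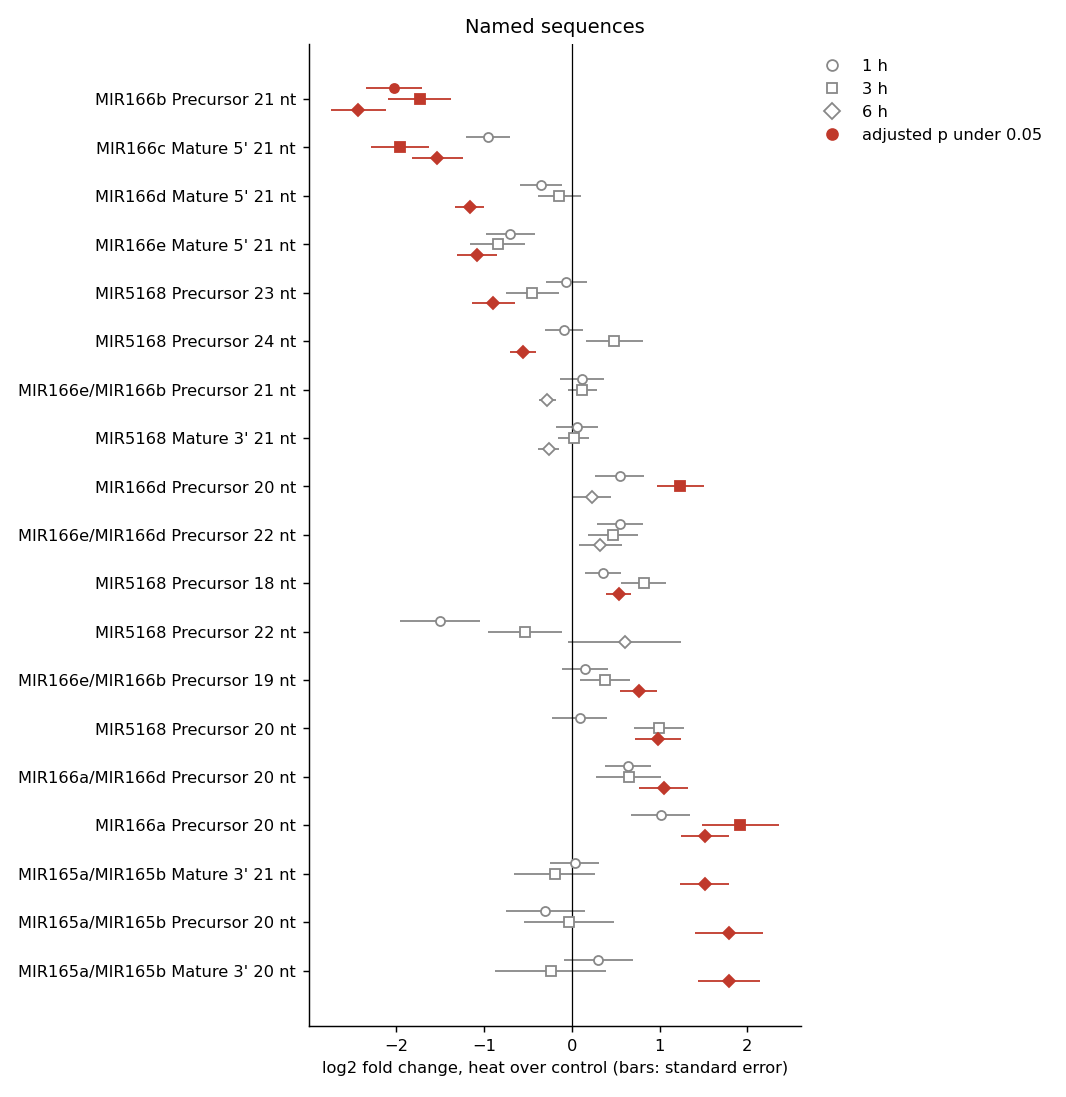
Log2 fold change of heat over control (horizontal axis, bars give the standard error) for the 19 named member sequences (vertical axis, ordered by the 6 h value) at 1, 3 and 6 h, filled red where the adjusted p was under 0.05. The MIR166b Precursor sequence, at -2.02, -1.73 and -2.43, is the only one filled at all durations.

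The same 5' arm pairs can be read as a share within each library, which needs no scaling between libraries. The share is the count of the 20 nt form over the sum of the 20 nt and 21 nt forms, the pairs were chosen after the values were seen, and no test is given. Capitals mark the base that the 20 nt form lacks.

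MIR166a, Mature 5', 21 nt: ggaatgttgtctggttcaagG
MIR5168, Mature 5', 21 nt: gggttgttgtctggttcaagG
MIR166d, Mature 5', 21 nt: ggaatgttgtctggctcgggG

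After 1 h the MIR166d share was 7.34%, 7.33% and 5.79% with heat against 3.53%, 4.29% and 3.82% without. At 3 h it was 11.3%, 8.0% and 11.2% against 4.82%, 3.21% and 4.56%, and at 6 h 11.7%, 9.37% and 9.57% against 5.02%, 3.46% and 4.02%. All heat libraries were above all controls at every duration. For MIR166a the heat libraries averaged 16.5% ± 3.06, 20.9% ± 4.76 and 15.4% ± 2.17 over the 3 durations, and the controls 8.32% ± 1.75, 5.99% ± 0.423 and 8.02% ± 2.95 (SD, n = 3), again without overlap. For MIR5168 the groups overlapped at 1 h and did not at 3 h, 13.6% ± 1.33 against 7.09% ± 1.49, or at 6 h, 14.0% ± 2.51 against 7.01% ± 0.757. The fourth listed 5' pair, a MIR166b Precursor form, went the other way at 1 h and 6 h, with 15.5% ± 2.61 in heat and 34.9% ± 12.1 in control at 6 h. Among the 3' pairs, the share was higher in heat without overlap for 1 of 7 pairs after 1 h, for 1 of 8 after 3 h and for 4 of 7 after 6 h. The same count over pairs of other families was not computed, so nothing about the members is read from it. As an unlike measure, single sequences were higher in heat without overlap for 8.78%, 10.7% and 16.6% of all sequences tested at 1, 3 and 6 h. Some 3' pairs share their 20 nt form, so the pairs are not separate. With the 21 nt MIR166j form that is labelled Mature 5', 1 such share at 6 h was 77.7% ± 1.28 in heat and 69.5% ± 4.09 in control. With a 21 nt MIR166e form, the same 20 nt form gave 78.6% ± 6.67 and 85.2% ± 1.76, which overlapped.

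**Figure D3:**
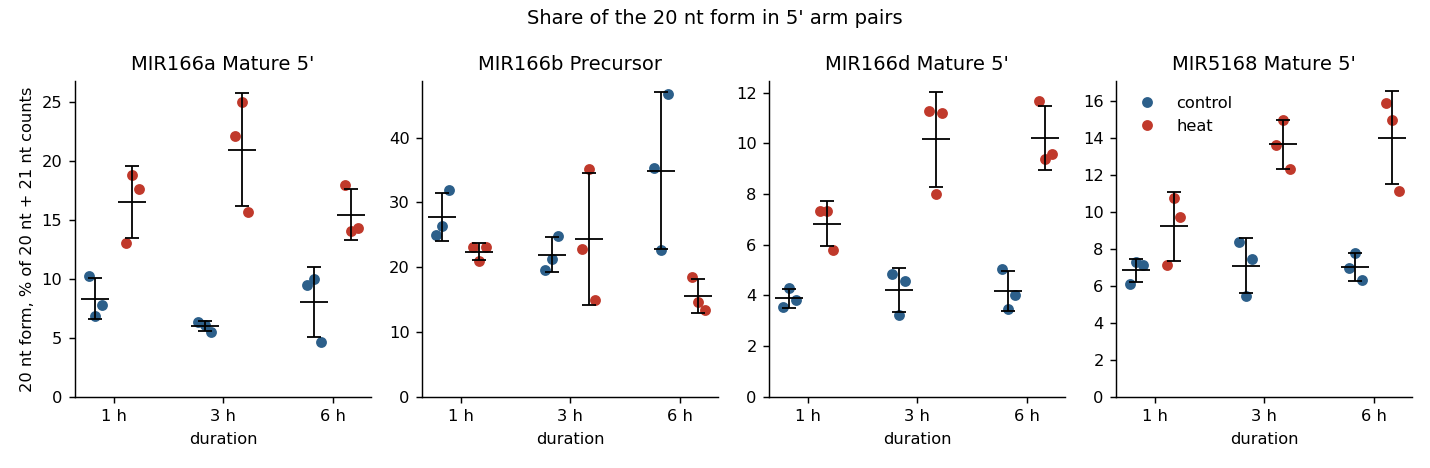
Share of the 20 nt form in the counts of 4 pairs of 5' arm forms (vertical axes, percent of 20 nt plus 21 nt counts, from 0) at 1, 3 and 6 h (horizontal axes). Points are libraries, blue for 21 °C and red for 35.5 °C, with the mean and SD of 3; for MIR166d the heat points lie between 5.79% and 11.7% and the controls between 3.21% and 5.02%.

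Over all members, the length distribution moved little. At 6 h forms of 20 nt made up 3.70%, 3.53% and 3.32% of the member counts in heat and 3.03%, 2.79% and 2.80% in control. Forms of 21 nt made up 92.7%, 93.3% and 93.4% in heat and 94.1%, 94.3% and 94.4% in control. Neither pair of groups overlapped, and the 2-sided exact permutation test gave p = 0.1 for each, the smallest that 3 against 3 libraries allows, or 0.9 after adjustment over the 18 share tests. The sequences that are not members moved with them at 6 h, with 8.63% to 9.84% of their counts at 20 nt in heat and 7.98% to 8.46% in control, and their part in the result was not tested. Their 18 nt share went the other way at 6 h, 2.86% to 3.56% in heat and 3.69% to 3.87% in control, while that of the members was 1.00% to 1.29% in heat and 0.661% to 0.686% in control. The other 16 share tests, which covered the 22 nt share, the start of the mature form, the annotated arms and the most abundant sequence, and the 20 and 21 nt shares at 1 h and 3 h, gave adjusted p = 0.953 or 1.0 by the same exact test.

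Grouped by seed, forms with TCGGACC took 75.8% to 80.5% of the member counts over the 18 libraries and forms with CGGACCA 16.97% to 21.7%. Neither share separated heat from control at any duration. The 5' arm seed GAATGTT took 0.646% ± 0.0607 in heat and 0.934% ± 0.214 in control at 6 h (SD, n = 3), with no overlap, and overlapped at 1 h and 3 h. The MIR166d Mature 5' sequence, the most abundant 5' member, carries this seed, so its fall and this share are not separate.

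Totals by family and annotated arm were called at 6 h alone. At 6 h 4 of the 8 family and arm totals were called, beside 16.4% of all 128 such totals tested (7.81% higher and 8.59% lower), and at 1 h and 3 h none of 8 was, by edgeR, nor did any reach an unadjusted p under 0.05, beside 0.769% and 2.33% called of all totals. miR166 Mature 5' held 2043, 2203 and 1838 CPM in heat and 3424, 3395 and 4824 CPM in control at 6 h, a fall of 0.94 on the log2 scale. Its standard error was 0.18 and its adjusted p 0.0163 in edgeR. The MIR166d Mature 5' sequence alone held 1452 ± 154 CPM in heat and 3251 ± 617 CPM in control at 6 h (SD, n = 3), most of this total. The total therefore says little about the other sequences in it. It also counts the 21 nt MIR166j form that is labelled Mature 5' but matches the 3' forms. miR165 Mature 3' and miR165 Precursor rose by 1.53 ± 0.30 and 1.77 ± 0.31, adjusted p = 0.0172 and 0.0163. miR166 Precursor, which is nearly the MIR166e/MIR166b form alone, changed by -0.28 ± 0.07, adjusted p = 0.0372, and with implied library totals 2 of the 8 arm totals were called. The 3 miR5168 arm totals and miR166 Mature 3' were not called at 6 h.

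By locus, 6 of 17 totals were called at 6 h, 2 higher and 4 lower, where 10.8% of all 195 loci were (5.13% higher and 5.64% lower). At 1 h and 3 h edgeR called none of 17, beside 1.45% and 1.02% of all loci. An unadjusted p under 0.05 was found for 3 and 5 of the 17, and DESeq2 called 1 and 2. Neither of these counts was made over all loci, so nothing about the members is read from them. MIR165a and MIR165b, which share nearly all their sequences, rose by 1.53 ± 0.29 and 1.54 ± 0.29, adjusted p = 0.0169 for each. MIR166c held 65.7, 57.8 and 74.3 CPM in heat and 140, 144 and 175 CPM in control at 6 h, a change of -1.21 ± 0.20, adjusted p = 0.0166 in edgeR. It was also lower in every heat library at 1 h (-0.68 ± 0.18, adjusted p = 0.294) and at 3 h (-1.24 ± 0.26, adjusted p = 0.0715). MIR166d changed by -0.73 ± 0.16 at 6 h, adjusted p = 0.0271 in edgeR, and its total holds the MIR166d Mature 5' sequence whose fall is given above. MIR166b and MIR166e, whose totals rest on the shared 21 nt form, changed by -0.28 ± 0.07 each, adjusted p = 0.0423. That form was not called when tested as a single sequence (-0.28 ± 0.10, adjusted p = 0.105 in edgeR). The miR166 total, which rests on it too, was -0.0066 with implied library totals. Leaving out 1 library gave 0 to 3 called loci at 6 h, with 0 without control replicate 2 or heat replicate 1, and implied library totals gave 2.

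The other loci were not called at any duration. MIR166i was higher in every heat library at all durations, with changes of 0.40 ± 0.17, 0.59 ± 0.18 and 0.27 ± 0.16. MIR166a changed by 0.05 ± 0.19, -0.03 ± 0.19 and 0.04 ± 0.16, and its heat and control libraries overlapped throughout. MIR166g and MIR166h were lower in every heat library at 3 h, by -0.48 ± 0.18 and -0.70 ± 0.21, with adjusted p = 0.222 and 0.196. MIR166m changed by 0.15 ± 0.22, -0.11 ± 0.18 and -0.26 ± 0.15. MIR166l, at 16.2 to 48.7 CPM over the 6 h libraries, had the highest uncalled value, 0.74 ± 0.32, adjusted p = 0.246 in edgeR. Sequences with names from Aegilops tauschii, a wild grass related to barley and wheat, made up 99.9% of the MIR166b, 99.0% of the MIR166c and 81.3% of the MIR166d counts at 6 h, and 0% of those of MIR165a, MIR165b and MIR166f to MIR166m.

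**Figure D4:**
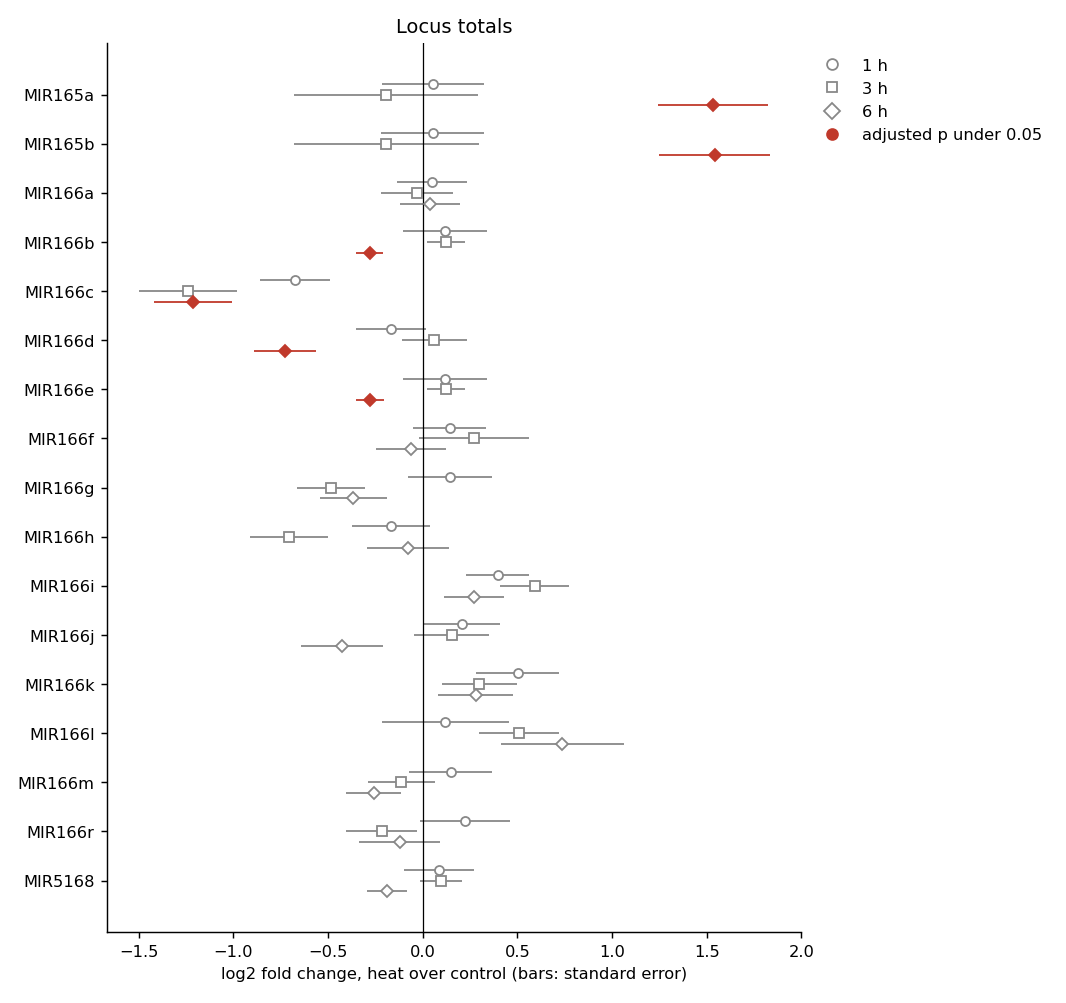
Log2 fold change of heat over control (horizontal axis, bars give the standard error) for the 17 locus totals of at least 10 CPM (vertical axis) at 1, 3 and 6 h, filled red where the adjusted p was under 0.05. MIR165a and MIR165b lie at 1.53 and 1.54 at 6 h, and MIR166c lies below 0 at every duration.

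A fit of all 18 libraries to the sequences listed in the 3 tables gave the heat effect averaged over the durations. Heat and control were on different lanes at 3 h and the fit held no lane term, so the average carries any lane difference there. The fit called 20 of 113 members, 13 higher and 7 lower, 17.7% against 15.1% of the 961 sequences tested (7.08% higher and 8.01% lower). The 7 that fell included MIR166b Precursor (-2.04 ± 0.20, adjusted p = 3.94e-07 in edgeR) and the Mature 5' sequences of MIR166c (-1.47 ± 0.17), MIR166e (-0.86 ± 0.16) and MIR166d (-0.54 ± 0.13). Larger falls were those of 21 nt Precursor forms of MIR166e (-5.89 ± 0.83) and MIR166c (-2.18 ± 0.50), at means of only 5.65 and 5.07 CPM. Among the 13 that rose were the 20 nt MIR166a form (1.49 ± 0.21), the 20 nt MIR166d form (0.68 ± 0.15) and the 20 nt MIR5168 form (0.70 ± 0.17). Longer forms rose too, the 22 nt MIR166e/MIR166d form (0.46 ± 0.15) and a 23 nt MIR166r form (1.09 ± 0.33), the latter at a mean of 6.15 CPM. A 19 nt MIR166i form, picked out after its values were seen, rose by 0.45 ± 0.10, adjusted p = 0.00397, and was not called at any single duration. No family total was called for the average, which was 0.47 ± 0.25 for miR165, adjusted p = 0.319, against 12.2% of all families called (5.41% higher and 6.76% lower). Without control replicate 1 at 3 h, the library that stood apart, the average for miR165 was 0.69 with adjusted p = 0.0296 in edgeR, which is a call. In the same fit, edgeR called 0 of 113 members for the heat effect at 6 h minus that at 1 h, for control at 6 h minus control at 3 h and for heat at 3 h minus heat at 1 h. Of all 961 sequences tested, edgeR also called 0 for each of these contrasts. An unadjusted p under 0.05 was found for 8, 7 and 11 members, and DESeq2 called 0, 0 and 1. Neither count was made over all 961 sequences, so nothing about the members is read from them.

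In the authors' deposited table of each duration, 15, 34 and 66 of 4750, 4671 and 4603 sequences had an FDR p-value under 0.05 at 1, 3 and 6 h. Among them were 1, 3 and 12 of the 366, 355 and 368 members, of which 1, 2 and 7 were also called here. For the MIR166b Precursor sequence the authors' deposited table gave folds of -4.11, -3.33 and -5.19. For the 21 nt MIR165a/MIR165b form at 6 h the authors' deposited table gave a fold of 2.95 with an FDR p-value of 0.00329.

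Other families with known roles in leaf development, whose targets include growth regulators such as the TCP and GRF transcription factors, were counted for comparison. Of miR159, miR164, miR319, miR390 and miR396, edgeR called 1 of 132 tested sequences at 1 h, 5 of 123 at 3 h, 3 of them higher, and 17 of 124 at 6 h, 15 of them higher, beside 1.76%, 4.35% and 12.1% of all sequences tested (6.07% higher at 6 h). Their median log2 change was 0.22, 0.48 and 0.34 at the 3 durations, and that of all sequences tested was 0.07, -0.08 and 0.00. Only miR319 among these 5 families had a called total, 0.70 ± 0.17 at 6 h, adjusted p = 0.031 in edgeR. The families whose totals had the highest Pearson r with the sum of miR165, miR166 and miR5168 over the 18 libraries were miR397 with 0.52, miR5052 with 0.36, miR5049 with 0.27, miR171 with 0.26 and miR168 with 0.26. Spearman's rho was 0.36, 0.31, 0.24, 0.27 and -0.013 in the same order, so the rank order of miR168 did not follow the sum. All points share the same libraries and scaling, and the values are given as a description.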

How the data were processed

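Small RNA of barley shoots was sequenced in 18 libraries, 3 for each of 6 groups, from total RNA made into TruSeq small RNA libraries, per the labels' protocols. The authors deposited 1 table per duration with a raw count of each distinct sequence of 18 to 25 nt in 6 libraries, per the file headers, annotated with 0 mismatches to plant precursors. They also deposited an RPM value per library, a signed fold of heat over control as a score, and an FDR p-value from an EDGE test, per the file headers. Neither the aligner nor the miRNA annotation version is stated in the sources used here. A further 18 columns repeat the counts and were not used.

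The members and gene lists here were chosen with earlier results of these data known. Counts were tested per duration with edgeR 4.0.16 (R 4.3.3, limma 3.58.1), quasi-likelihood F test, TMM scaling and Benjamini-Hochberg adjustment, after a filter keeping sequences with about 10 counts in 3 libraries and 15 in all. Family, locus and arm totals used the table totals and TMM factors of the sequences. A second fit joined the 18 libraries over the 2720 sequences listed in every table. Shares were tested with exact 2-sided permutation (scipy 1.17.1). The totals of the tables are 5.11% to 9.02% of the library totals that the deposited RPM values imply, 23280481 to 44219180, which served as an alternative. A count of 0 allows up to 3 counts, 0.933 to 2.07 CPM of a table, and covers counting error only. Replicates correlated with r of 0.917 to 0.972. Alternatives were DESeq2 1.42.0, RLE factors, table totals, TMM factors from other sequences, implied totals, no filter or at least 10 CPM in 3 libraries, 1 fit of all 18 libraries, each library left out, and, added after seeing the data, locus totals of Aegilops tauschii names only. Named sequences were the most abundant of each family and annotation type, each member called at a duration, and the 3 largest rises and falls per duration among those of at least 10 CPM whose groups did not overlap. Only the fit of single sequences at each duration was run on simulated counts, with the same spread for all sequences, and its outcome is not given here. Totals and the fit of all 18 libraries were not simulated.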

Additional observations from a re-analysis of the deposited data

Results flagged for a closer look

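A set of overlapping totals had every heat library above every control at 3 h and every heat library below every control at 6 h, and the difference between the durations was not tested. The log2 changes at 3 h and 6 h were 0.12 and -0.28 for miR166, 0.11 and -0.26 for the sum of the 3 families, 0.12 and -0.28 for MIR166b, 0.12 and -0.28 for MIR166e, 0.12 and -0.28 for miR166 Precursor, and 0.12 and -0.28 for the 21 nt MIR166e/MIR166b Precursor sequence. The opposite directions depend on the scaling: with library size scaling miR166 was -0.10 at 3 h and -0.20 at 6 h and the sum -0.11 and -0.17, and with implied library totals the 6 h values were -0.0066 and 0.018. All 6 rest on the last of these, and at 3 h lane and temperature cannot be told apart.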

How the results depend on the processing

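No paired analysis was possible because replicates were numbered in accession order, so a shared number ties no libraries together. The rise of the miR165 total and the fall of MIR166b Precursor, MIR166c Mature 5' and MIR166d Mature 5' at 6 h kept their direction under every alternative run. Where a value changed side or direction the cause was not tested. Values below are log2 changes unless given as counts of calls. Calls under an alternative, here and above, were counted among the members only. The share called over all features in the same fit is not given, so nothing about the members is read from these counts.

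With DESeq2, 2 sequences were called at 1 h, 1 locus at 1 h and 2 at 3 h, and 1 sequence for heat at 3 h minus 1 h, while the 1 h values were -0.0038 for miR165 and -0.022 for MIR165 21 nt, the 3 h value of the MIR165 Precursor 20 nt form was 0.013, the 6 h values were -0.28 for miR166 and -0.25 for the sum, and the average sum was -0.010. RLE factors gave -0.0039, -0.022 and 0.017 for these 3 values and -0.010 for the average sum. Without a filter, 2 sequences were called at 1 h and 1 locus at 3 h, with -0.28 for miR166 and -0.26 for the sum at 6 h, neither called. Library size scaling left 2 sequences and 1 locus called at 3 h and 3 loci at 6 h. It gave -0.10 for miR166, -0.12 for miR5168, -0.11 for the sum, -0.099 for MIR166e/MIR166b 21 nt and -0.19 for MIR5168 21 nt at 3 h, -0.20 and -0.17 for miR166 and the sum at 6 h, and -0.060 and -0.076 for the average of miR5168 and the sum. TMM factors from other sequences gave -0.0053 and -0.018 for those averages. Aegilops tauschii names alone gave 1 called locus at 3 h. The fit of all 18 libraries called 9 sequences at 3 h, and gave -0.020 for miR165, -0.010 for MIR5168 21 nt and -0.041 for MIR165 21 nt at 1 h, 0.0027 for MIR165 Precursor 20 nt at 3 h, and -0.22 and -0.20 for miR166 and the sum at 6 h.

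Implied library totals gave 2 called sequences and 1 locus at 1 h, 1 locus at 3 h, and 8 sequences, 2 loci and 2 arms at 6 h. At 1 h they gave -0.17 for miR165, -0.15 for miR166, -0.17 for miR5168, -0.15 for the sum, -0.15 for MIR166e/MIR166b 21 nt, -0.20 for MIR5168 21 nt, -0.18 for MIR165 21 nt, -0.11 for MIR166e/MIR166b 19 nt and -0.17 for MIR5168 20 nt. They gave 0.078 for MIR165 Precursor 20 nt at 3 h, and at 6 h -0.0066 for miR166, 0.10 for miR5168, 0.018 for the sum and 0.031 for MIR5168 21 nt. The average miR166 was then 0.012, and the 6 h minus 1 h effect 0.14 for miR166, 0.27 for miR5168 and 0.17 for the sum. Without the most abundant sequence the 22 nt share at 6 h differed by -0.070 points.

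Leaving out 1 library gave 1 to 2, 0 to 6 and 3 to 13 called sequences at 1, 3 and 6 h, 0 to 1 called loci at 3 h, 0 to 3 loci and 0 to 4 arms at 6 h, and 13 to 22 sequences for the average. At 1 h the ranges were -0.16 to 0.27 for miR165, -0.054 to 0.25 for miR166, -0.040 to 0.23 for the sum, -0.058 to 0.26 for MIR166e/MIR166b 21 nt, -0.069 to 0.20 for MIR5168 21 nt, -0.19 to 0.24 for MIR165 21 nt, -0.21 to 0.031 for MIR5168 23 nt, -0.034 to 0.24 for MIR166e/MIR166b 19 nt and -0.10 to 0.30 for MIR5168 20 nt. At 3 h they were -0.62 to 0.47 for miR165, -0.0038 to 0.072 for MIR5168 21 nt, -0.22 to 0.069 for MIR166d Mature 5', -0.62 to 0.46 for MIR165 21 nt, -0.96 to 0.73 for MIR165 Mature 3' 20 nt and -0.43 to 0.54 for MIR165 Precursor 20 nt. At 6 h they were 1.28 to 1.83 for miR165, -0.31 to -0.23 for miR166 and -0.29 to -0.21 for the sum. The averages ran from 0.31 to 0.69 for miR165, -0.062 to 0.047 for miR166, -0.047 to 0.044 for miR5168 and -0.057 to 0.048 for the sum. The 6 h minus 1 h effect of miR166 ran from -0.57 to -0.096, and it was called only without heat replicate 1 at 1 h. Control at 6 h minus 3 h gave 0 to 1 called sequences, -0.73 to 0.25 for miR165 and -0.00028 to 0.074 for miR5168, and heat at 3 h minus 1 h gave -0.13 to 0.50 for miR165, -0.094 to 0.32 for miR166 and -0.074 to 0.31 for the sum. In percentage points, the shares at 1 h ran from -0.015 to 0.67 for 20 nt, -1.16 to 0.40 for 21 nt, -0.37 to 1.32 for the mature start, -1.19 to 0.066 for annotated mature arms and -1.12 to 1.30 for the most abundant sequence. At 3 h they ran from -0.083 to 0.13 for 20 nt and -0.011 to 0.036 for 22 nt, and at 6 h from -0.015 to 0.024 for 22 nt and -0.72 to 0.77 for annotated mature arms. Where a group kept 2 libraries, the spread was pooled across all libraries of the fit.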
